A study of Mus musculus with 6 samples.

Results

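The 10 genes studied here mark granule cells of the dentate gyrus (Prox1, Dsp, Lct, Tdo2, Plk5, Stxbp6, Calb1, Npnt, Glis3 and Sema5b) and were followed in hippocampal RNA of mice lacking CBP. They were given as a fixed list, chosen with earlier results of these data known, and looked up by symbol in a table of 55471 genes, where all 10 members were found and all 10 passed the filter on low counts. CBP, encoded by Crebbp, is a lysine acetyltransferase that transcription factors such as CREB recruit to enhancers and promoters. Total RNA was sequenced in 6 libraries, 3 per genotype, from C57BL/6 mice (C57BL/6J in the study's methods). The labels give an age of 3 to 6 months, of which the methods give the younger end for this experiment, and in the methods each library came from the pooled hippocampi of 3 females. The CBP-ifKO libraries (Crebbp_flox;Camk2a_creERT2) came from animals with floxed Crebbp alleles and a tamoxifen-inducible Cre driven by Camk2a, a promoter active in excitatory neurons of the forebrain but not in glia. Recombined cells retain a truncated CBP protein without acetyltransferase activity. The Control libraries came from littermates that received the same tamoxifen, given 5 times into the stomach at 20 mg/mL in corn oil. A label calls the Control samples Camk2a_creERT2, whereas the treatment text and the study's methods describe them as littermates without the driver. Whether they carried floxed alleles is not given in the sources used here. Esr1 and Arsi, which the study links to the driver transgene, were far higher in every CBP-ifKO library than in any Control library (values below). The driver was thus a difference between the groups, and in these 6 libraries its presence and the loss of CBP cannot be told apart. The study reports that mice with Ep300 deleted by the same driver differed significantly from their littermates only in Esr1 and Arsi. Those mice are not among the libraries used here.

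Granule cells are the principal neurons of the dentate gyrus. They receive entorhinal input through the perforant path and send mossy fibers to hilar mossy cells and CA3 pyramidal neurons, and they are one of the few neuron types still born in the adult rodent brain. Prox1, a homeodomain transcription factor, sets and maintains their identity, and the other members are genes whose hippocampal expression is concentrated in this layer. Calb1 is not restricted to it, since CA1 pyramidal neurons and some interneurons also contain calbindin, and Prox1 is also found in a class of interneurons.

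Library depth ran from 10199008 to 14950257 counts. Values below are CPM, read counts divided by a library size that was scaled by the trimmed mean of M values (TMM), with mean ± SD over 3 libraries. A gene was called when its adjusted p was under 0.05 in a fit over all 17981 genes that passed the filter. Crebbp fell from 191.2 ± 30.1 to 98.4 ± 10.8 CPM (-0.96 on the log2 scale, edgeR adjusted p 3.63e-05). Esr1, part of whose coding sequence is in the CreERT2 transgene, was between 5.65 and 6.29 CPM in Control and between 63.6 and 69.4 CPM in CBP-ifKO libraries. Arsi, a neighbor of Camk2a carried on the same transgene, had a log2 fold change of 2.76 (edgeR adjusted p 2.82e-05), whereas Ep300 (0.18, edgeR adjusted p 0.321) and Camk2a (0.09, edgeR adjusted p 0.516) were not past the threshold. No library was a copy of another, since replicates differed beyond sampling noise (chi-square per degree of freedom from 2.46 to 6.08). Nothing in the labels says that the libraries came from separate cohorts, so the p-values measure the spread between these pools.

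The granule cell genes did not shift as a block. Lct and Npnt rose, Tdo2 and Plk5 fell, and the other 6 were not past the threshold. The 4 calls among 10 members stand beside 6.39% of all genes tested. By direction, 2 members were called lower, beside 4.99% of all genes, and 2 were called higher, beside 1.40%. Over the 10 members, 5 log2 fold changes were positive and 5 negative, with a median of -0.02 against -0.003 for all genes tested and a range from -0.93 to 0.71. The libraries of the genotypes did not overlap for 6 members (the 4 called, Stxbp6 and Sema5b), beside 25.6% of all genes tested. In bulk tissue, fewer granule cells and less RNA per granule cell cannot be told apart.

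**Figure D1:**
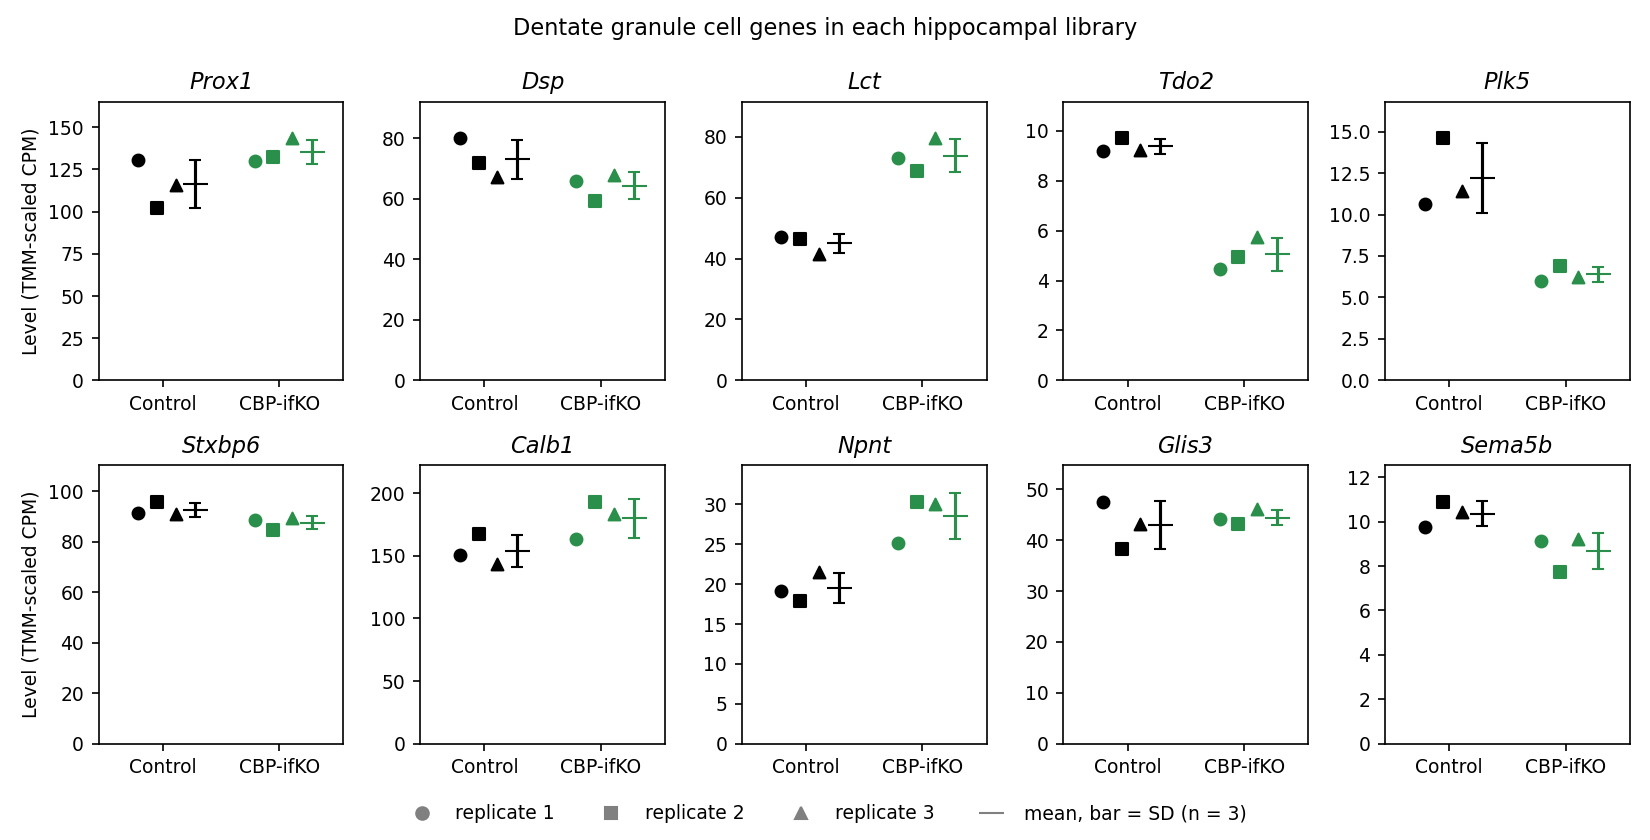
TMM-scaled CPM of each of the 10 genes in the 3 Control (black) and 3 CBP-ifKO (green) libraries, with the replicate shown by the symbol and the mean ± SD (n = 3) beside the points. Each vertical axis starts at 0. The green points of Lct and Npnt all lie above the black ones and those of Tdo2 and Plk5 all lie below, whereas those of Prox1, Dsp, Calb1 and Glis3 overlap.

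Of the transcription factors, Prox1 (ENSMUSG00000010175, GRCm38 chromosome 1, 190118035 to 190170714, minus strand) was at 130.5, 102 and 116 CPM in Control replicates 1 to 3 and at 130.2, 132 and 144 CPM in the 3 CBP-ifKO libraries. The highest Control library, replicate 1, slightly exceeded the lowest CBP-ifKO library, replicate 1, and the other CBP-ifKO libraries were above the Control range. The means were 116 ± 14.1 CPM and 135 ± 7.17 CPM. They gave a log2 fold change of 0.22 (95% interval 0.05 to 0.39, SE 0.079) that did not pass the threshold (edgeR adjusted p 0.110). This value leaned on single Control libraries: without Control replicate 1 it was 0.31 and past the threshold (adjusted p 0.0252), and without Control replicate 2, the lowest, it was 0.14 (adjusted p 0.224). Prox1 shares 1.59% of its exon bases with the antisense gene Prox1os, and whether the authors counted by strand is not stated. Glis3 (chromosome 19, 28258851 to 28680077), a Krüppel-like zinc finger transcription factor, was at 47.6, 38.2 and 43.2 CPM in Control and at 44.1, 43.1 and 46.1 CPM in CBP-ifKO libraries, which lay within the Control range. Its log2 fold change was 0.05 (95% interval -0.13 to 0.23, edgeR adjusted p 0.809).

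Lct and Tdo2 encode metabolic enzymes, and they moved in opposite directions. Lct encodes lactase-phlorizin hydrolase, best known as the intestinal enzyme that splits lactose. Lct (ENSMUSG00000026354, chromosome 1, 128284756 to 128328318, minus strand) was at 47.2, 46.4 and 41.4 CPM in Control and at 73.0, 68.8 and 79.5 CPM in CBP-ifKO libraries. Every CBP-ifKO library was thus well above every Control library. The mean rose from 45.0 ± 3.17 to 73.8 ± 5.38 CPM, or 1.64-fold. The log2 fold change, 0.71 with an SE of 0.078 (edgeR adjusted p 6.50e-05), was above that of 99.1% of all genes tested. Tdo2 encodes tryptophan 2,3-dioxygenase, which opens the kynurenine pathway of tryptophan breakdown. Tdo2 (ENSMUSG00000028011, chromosome 3, 81957090 to 81976202, minus strand) was at 9.20, 9.71 and 9.22 CPM in Control and at 4.46, 4.93 and 5.76 CPM in CBP-ifKO libraries. The Control values were almost identical and the CBP-ifKO values all lay well below them. The mean fell from 9.38 ± 0.285 to 5.05 ± 0.659 CPM, or 53.8% of the Control level. On the log2 scale the difference was -0.89 with an SE of 0.15 (edgeR adjusted p 0.00172). Tdo2 rested on 46 to 113 counts per library, so that counting alone gives a coefficient of variation of 12.5% in CBP-ifKO, against 13.1% observed. In Control, counting alone gives 9.93%, against 3.04% observed, so the Control values were closer together than their precision.

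Plk5 fell by a similar amount. It encodes a member of the polo-like kinase family that is expressed in brain. Plk5 (ENSMUSG00000035486, chromosome 10, 80356459 to 80365489, plus strand) was at 10.6, 14.6 and 11.4 CPM in Control and at 6.01, 6.90 and 6.25 CPM in CBP-ifKO libraries. Control replicate 2 was the highest, and the lowest Control library was still above every CBP-ifKO library. The mean went from 12.2 ± 2.11 to 6.39 ± 0.461 CPM, which is -0.93 on the log2 scale with an SE of 0.15 (edgeR adjusted p 0.00132). Without Control replicate 2 it was -0.77 (adjusted p 0.00338). Fold changes varied with base composition. Plk5, with a GC content of 61.4% in its longest transcript, was among the 10% of genes richest in GC, which had a median log2 fold change of -0.19. After correction of each library for GC content and length, Plk5 was at -0.70 and still past the threshold (edgeR adjusted p 0.00515).

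Among the genes of the cell surface and matrix, Npnt rose and the others were not called. Npnt encodes nephronectin, an extracellular matrix protein that binds integrins. Npnt (ENSMUSG00000040998, chromosome 3, 132881745 to 132950291, minus strand) was at 19.2, 17.9 and 21.5 CPM in Control and at 25.2, 30.4 and 30.0 CPM in CBP-ifKO libraries. The genotypes did not overlap, and CBP-ifKO replicate 1 was the closest to Control. The mean rose from 19.5 ± 1.85 to 28.5 ± 2.89 CPM, or 0.56 on the log2 scale with an SE of 0.10 (edgeR adjusted p 0.00409). Npnt is on the study's list of genes higher in all of its CBP-ifKO screens, which these libraries helped to choose, so its direction is not independent evidence. Dsp (chromosome 13, 38151294 to 38198577) encodes desmoplakin, which anchors intermediate filaments to desmosomes. It was at 80.1, 71.9 and 67.3 CPM in Control and at 65.9, 59.3 and 67.9 CPM in CBP-ifKO libraries, with CBP-ifKO replicate 3 above the lowest Control library. Its log2 fold change of -0.19 (95% interval -0.35 to -0.02) missed the threshold (edgeR adjusted p 0.177), and 5.17% of its exon bases lie under Gm10129 on the other strand. Sema5b (chromosome 16, 35541145 to 35664732), a transmembrane semaphorin with thrombospondin repeats, was at 9.76, 10.9 and 10.4 CPM in Control and at 9.11, 7.76 and 9.22 CPM in CBP-ifKO libraries. The values did not overlap, but the gap was narrow and the log2 fold change of -0.26 (95% interval -0.54 to 0.02) missed the threshold (edgeR adjusted p 0.272). Sema5b has a GC content of 60.2%, and after the same correction its log2 fold change was -0.04 (adjusted p 0.895).

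Calb1 and Stxbp6, the most abundant members per length of exon, belong to calcium buffering and vesicle release. Calb1 (chromosome 4, 15881264 to 15908064), which encodes the calcium buffer calbindin, was at 151, 168 and 143 CPM in Control and at 163, 193 and 183 CPM in CBP-ifKO libraries. The highest Control library, replicate 2, exceeded the lowest CBP-ifKO library, replicate 1. The log2 fold change was 0.23 (95% interval 0.07 to 0.38) and missed the threshold (edgeR adjusted p 0.0789), although without Control replicate 2 it was 0.30 (adjusted p 0.0104) and without CBP-ifKO replicate 1 it was 0.29 (adjusted p 0.0387). Stxbp6 (chromosome 12, 44852484 to 45074709) encodes amisyn, a SNARE-binding protein. It was at 91.4, 96.0 and 91.0 CPM in Control and at 88.6, 84.6 and 89.6 CPM in CBP-ifKO libraries. All CBP-ifKO libraries were lower, by a small amount, and the log2 fold change of -0.09 (95% interval -0.22 to 0.05) missed the threshold (edgeR adjusted p 0.476).

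Levels were compared between members per kilobase of exon. In Control libraries, Calb1 had the highest level with 31.8 CPM per kb, followed by Stxbp6 with 17.5 and Prox1 with 13.9. Dsp and Lct were alike at 7.57 and 7.02, and Glis3, Plk5 and Npnt were at 4.87, 4.56 and 3.88 CPM per kb. Tdo2 (2.42) and Sema5b (1.46) were the least abundant. The called members were thus spread over the lower 7 of the 10 levels, and none of the 3 most abundant members was called. The summed level of the 10 members, which Calb1 and Prox1 dominate, was between 555 and 596 CPM in Control and between 610 and 661 CPM in CBP-ifKO libraries.

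The start regions of the 4 called members are shown because the pairs that rose and fell can be set side by side. Each line gives the 250 bases before the RefSeq start site (GRCm38.p6), 5′ to 3′ on the strand of the gene, with GC boxes (GGGCGG) and TATA boxes (TATAAA) on either strand in capitals. Lct (chr1:128328319-128328568, minus strand) and Npnt (chr3:132950292-132950541, minus strand, the outer of its 2 listed starts) rose, and Tdo2 (chr3:81975729-81975978, minus strand) and Plk5 (chr10:80356209-80356458, plus strand) fell.
Lct: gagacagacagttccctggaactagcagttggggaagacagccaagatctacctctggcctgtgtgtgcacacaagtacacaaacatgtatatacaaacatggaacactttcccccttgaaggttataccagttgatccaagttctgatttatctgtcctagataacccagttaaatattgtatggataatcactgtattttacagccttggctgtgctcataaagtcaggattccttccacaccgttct
Npnt: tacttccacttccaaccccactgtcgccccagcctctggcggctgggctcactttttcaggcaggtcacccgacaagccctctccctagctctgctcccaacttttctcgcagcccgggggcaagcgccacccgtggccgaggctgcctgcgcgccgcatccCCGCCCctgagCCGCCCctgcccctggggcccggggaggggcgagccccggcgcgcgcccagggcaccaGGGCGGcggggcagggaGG
Tdo2: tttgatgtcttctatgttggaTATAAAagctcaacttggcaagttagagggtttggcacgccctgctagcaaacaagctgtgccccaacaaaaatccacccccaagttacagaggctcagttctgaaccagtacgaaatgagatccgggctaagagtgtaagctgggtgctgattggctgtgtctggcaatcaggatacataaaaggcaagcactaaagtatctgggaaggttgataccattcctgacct
Plk5: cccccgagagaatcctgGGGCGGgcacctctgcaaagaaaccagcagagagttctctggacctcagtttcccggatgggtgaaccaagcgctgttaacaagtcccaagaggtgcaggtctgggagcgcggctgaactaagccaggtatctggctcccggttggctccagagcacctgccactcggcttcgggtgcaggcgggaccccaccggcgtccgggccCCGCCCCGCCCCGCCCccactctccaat

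The pairs were not alike within a direction. Including the 50 bases after the start, Lct and Tdo2 had a GC content of 44.7% and 47.7% and no GC box, whereas Npnt and Plk5 had 76.7% and 66.7% and 4 GC boxes each, one of them across the start site in Npnt. The RefSeq start of Tdo2 lies inside the gene as bounded above. GC boxes occurred in 35.7% of 32851 mouse windows of the same length. Tdo2 had a TATA box, found in 13.6% of windows, at the far end of the window from the start. The cAMP response element TGACGTCA (in 1.79% of windows) and the AP-1 sequences TGAGTCA or TGACTCA (5.2%) were in none of the 11 windows of the 9 members with an entry. The half-site TGACG, which the full element contains (20.8% of windows), occurred once, at the inner start of Npnt. E-boxes (CANNTG, 72.3% of windows) were present in Lct, Plk5, Prox1, Dsp, Stxbp6, Glis3 and the inner start of Npnt. Calb1 was not among the entries. These are letters in a short window, and no binding was measured.

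Ratios within a library do not depend on how libraries are scaled. Counts of Lct per count of Tdo2 were 5.13, 4.78 and 4.48 in Control and 16.4, 14.0 and 13.8 in CBP-ifKO libraries, so the mean ratio was 3.07 times higher. Npnt per Plk5 count was 1.81, 1.22 and 1.89 in Control and 4.19, 4.40 and 4.80 in CBP-ifKO libraries, 2.73 times higher. The remaining ratios of a member that rose to one that fell were 3.09 (Lct to Plk5) and 2.72 (Npnt to Tdo2) times higher. These pairs were formed after the calls were known, and the values are a description.

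Set against Prox1 in the same library, 8 of the other 9 members had ratios that did not overlap between genotypes, beside 30.2% of all genes tested. Lct (log2 difference 0.49) and Npnt (0.32) were higher relative to Prox1. Plk5 (-1.14), Tdo2 (-1.12), Sema5b (-0.48), Dsp (-0.41), Stxbp6 (-0.31) and Glis3 (-0.17) were lower. Calb1 kept its ratio to Prox1 (log2 difference 0.0004), and its libraries overlapped. All 9 ratios share Prox1 as the denominator and are not independent of each other. Prox1 itself had a log2 fold change of 0.22, which lowers every ratio. On their own, Glis3 (0.05), Stxbp6 (-0.09) and Dsp (-0.19) were not past the threshold. In 8 of them the highest Control value was that of replicate 2, the library with the lowest Prox1. An exact permutation test of 3 against 3 cannot give a p below 0.1, and none was run.

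**Figure D2:**
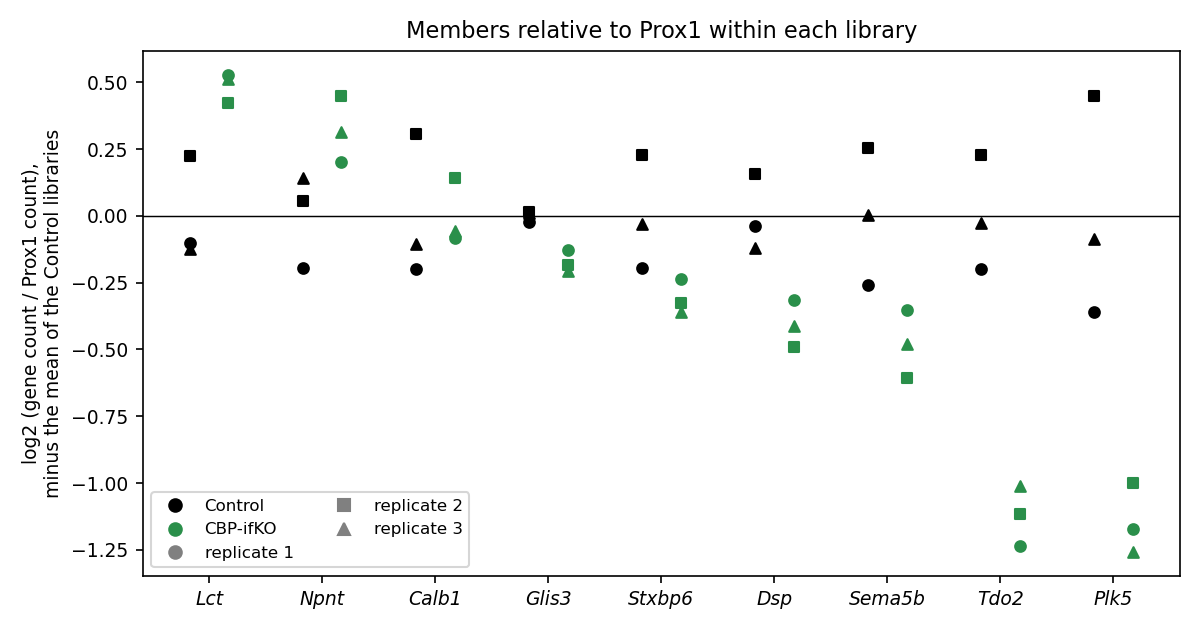
Log2 ratio of each member's count to the Prox1 count in the same library, minus the mean of the Control libraries, for Control (black) and CBP-ifKO (green) libraries with the replicate shown by the symbol. Lct and Npnt lie above Control in every CBP-ifKO library, Calb1 overlaps with Control, and the other 6 lie below, Tdo2 and Plk5 the farthest (-1.12 and -1.14).

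A further 15 genes known from granule cells were looked up in the same fit. Of these, 5 were called, all lower, beside 4.99% of all genes tested, and 10 of the 15 had a negative log2 fold change, with a median of -0.14. With the replicate block and the correction for GC content and length together, 7 were called, of which Ahcyl2 was higher (0.19, edgeR adjusted p 0.0158). That setting also called more genes in all, 1839 of the 17981 tested, against 1149 without block and correction. C1ql2, a secreted C1q-like protein of mossy fiber synapses, was at 20.3, 32.5 and 24.7 CPM in Control and at 4.46, 4.60 and 7.57 CPM in CBP-ifKO libraries. This difference, -2.22 in log2 units (SE 0.19, edgeR adjusted p 7.27e-06), was larger than that of any of the 10 members. Pdyn, the precursor of the dynorphin opioid peptides, fell from 8.40 ± 0.863 to 3.15 ± 0.175 CPM (log2 fold change -1.42, edgeR adjusted p 1.06e-04). Trpc6, a nonselective cation channel, went from 74.5 ± 4.13 to 42.3 ± 3.11 CPM (-0.81, edgeR adjusted p 1.48e-05). C1ql2, Pdyn and Trpc6 are on the study's list of genes lower in all of its screens, chosen partly on these samples. Smaller decreases were called for Il16 (-0.40, edgeR adjusted p 0.00659), the precursor of interleukin 16, and Pitpnm2 (-0.24, edgeR adjusted p 0.0347), a phosphatidylinositol transfer protein. Il16 shares 17.4% of its exon bases with genes on the other strand and had an adjusted p of 0.0572 without Control replicate 3. Pitpnm2 lost its call in 7 of 17 alternative analyses, with a log2 fold change of -0.02 after correction for GC content and length.

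The other 10 of these genes were not past the threshold. Dock10 (-0.14), Cdh9 (-0.14) and Bcl11b (-0.22) had lower values in every CBP-ifKO library, and C1ql3 (0.13) had higher ones, but 64.2% of the exon bases of C1ql3 lie under genes on the other strand. Bcl11b, a zinc finger transcription factor, was near the threshold (edgeR adjusted p 0.0557). The values of Neurod1 (0.05), Rfx3 (0.01), Akap7 (0.01) and Rasl10a (-0.01) were close to 0, and the log2 fold changes of Maml2 (-0.05) and Ahcyl2 (0.16) also missed the threshold. The summed level of the 15 genes was between 1599 and 1676 CPM in Control and between 1473 and 1583 CPM in CBP-ifKO libraries. Its largest parts were Ahcyl2, Rfx3, Dock10 and Pitpnm2, with Control means of 331, 290, 253 and 201 CPM. Of these only Pitpnm2 was called, and its log2 fold change was -0.02 after correction for GC content and length. The sum therefore says little about the 15 genes as a set.

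**Figure D3:**
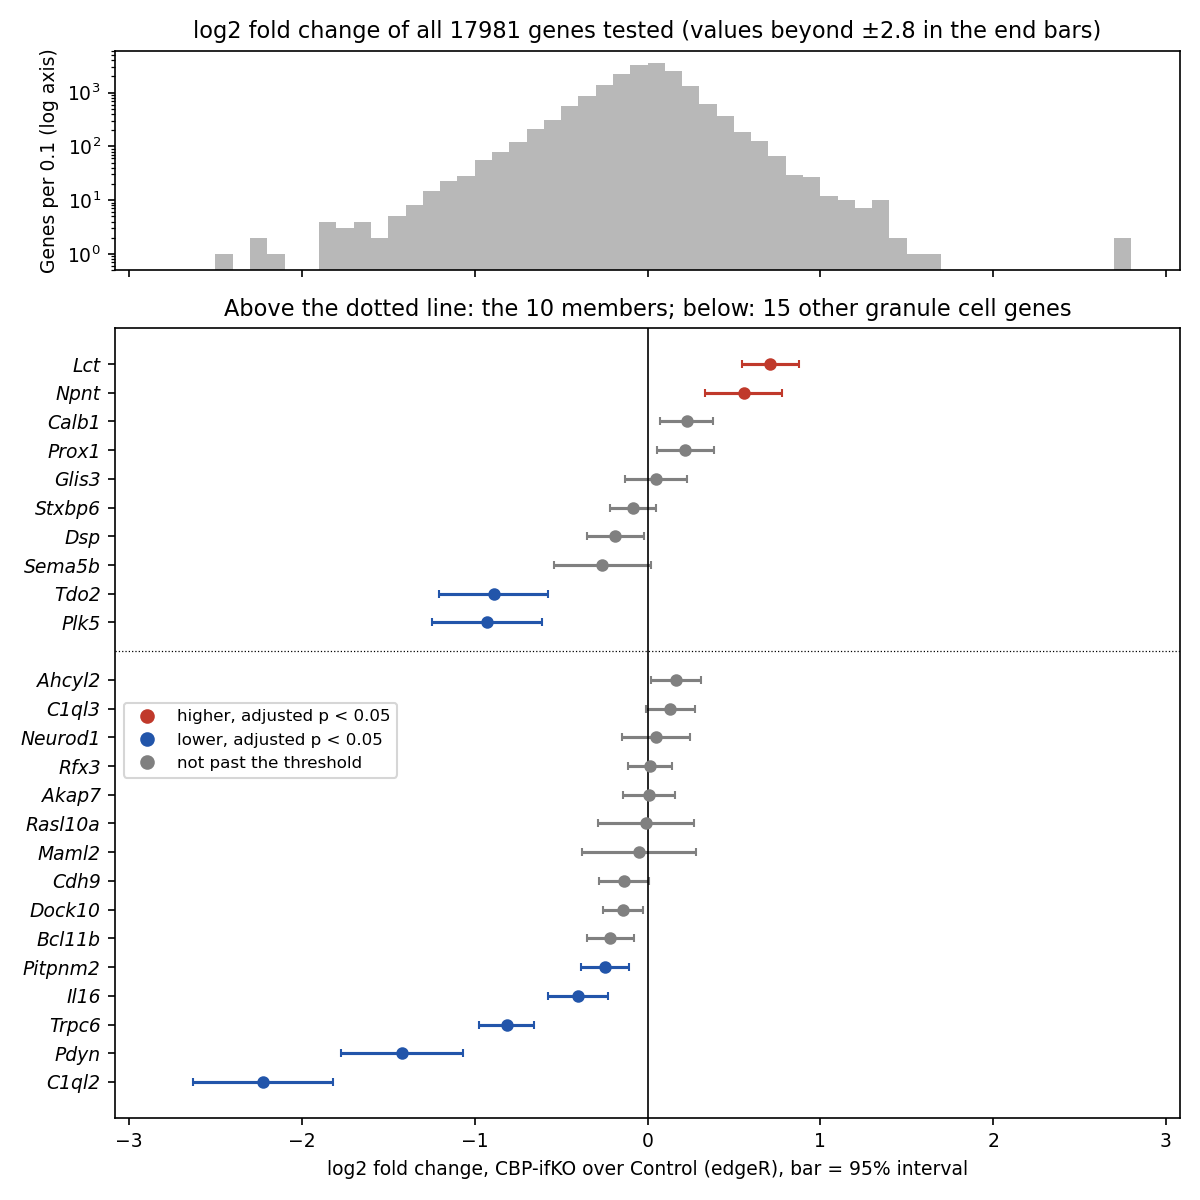
Top, number of genes per bin of 0.1 in log2 fold change (CBP-ifKO over Control) over the 17981 genes tested, on a log axis. Bottom, log2 fold change with its 95% interval for the 10 members and, under the dotted line, 15 other granule cell genes, in red (called higher), blue (called lower) or grey. The members spread to both sides of 0, from -0.93 for Plk5 to 0.71 for Lct. Under the dotted line, 5 of 15 genes were called, all lower, beside 4.99% of all genes tested.

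Markers of neighboring cells were read from the same fit, in which 4.99% of all genes were called lower and 6.39% in either direction. Lists of 4 to 8 genes are too short to set a single call apart from these shares. In CA1, 5 of 7 genes were called lower, namely Wfs1 (-1.19), Fibcd1 (-0.63), Mpped1 (-0.62), Pou3f1 (-0.39) and Man1a (-0.27), with a median of -0.39 over the list. In CA2, Rgs14 (-1.25) and Necab2 (-0.85) were called lower among 5 genes with a median of -0.11, whereas Amigo2 (-0.11), Pcp4 (-0.03) and Map3k15 (0.50, with every CBP-ifKO library above Control) were not past the threshold. In CA3 and in the thalamus, 0 of 5 each were called. Of the 5 mossy cell genes tested, Calb2 was called lower (-0.49, edgeR adjusted p 0.0382). Of 4 genes of newborn granule cells and dividing cells tested, Sox11 (-0.50, edgeR adjusted p 0.0102) and Mki67 (-0.53, edgeR adjusted p 0.0273) were called lower. Dcx (-0.15, edgeR adjusted p 0.408) and Top2a (-0.35, edgeR adjusted p 0.629) overlapped between genotypes and were not past the threshold. The summed level of the mossy cell list was 124 to 129 CPM in Control and 101 to 106 CPM in CBP-ifKO libraries. Most of it was Ociad2 (means of 82.5 and 71.4 CPM), a gene without a call (log2 fold change -0.21, edgeR adjusted p 0.0585). For newborn and dividing cells the sum was 67.9 to 71.0 CPM in Control and 52.0 to 56.7 CPM in CBP-ifKO libraries. Of 8 interneuron genes, Slc32a1 (-0.38) and Sst (-0.51) were called lower. The study describes an interneuron in which the driver is not expressed, so interneurons also count among the cells without it. No gene was called higher in any of these lists, beside 1.40% of all genes tested. Fibcd1, Pou3f1, Necab2 and Slc32a1 (GC content 59.4% to 63.9%) were among the 10% of genes richest in GC, whose median log2 fold change was -0.19. Their values are given without the correction for GC content and length. Pou3f1 and Slc32a1 were near the threshold (edgeR adjusted p 0.0393 and 0.0450), and 24.9% of the exon bases of Slc32a1 lie under Gm14205 on the other strand. Among non-neuronal cells without the driver, 0 of 6 astrocyte, 0 of 6 microglia, 0 of 5 endothelial and 0 of 4 choroid plexus genes were called. Of 7 oligodendrocyte lineage genes, 1 was called (Pdgfra, -0.38). The summed astrocyte level ran from 1282 to 1331 CPM in Control and from 1185 to 1294 CPM in CBP-ifKO libraries. Dcn, a proteoglycan gene used as a mark of meningeal fibroblasts, was lower (-0.69, edgeR adjusted p 1.33e-04), and the other genes of that list that were tested, Lum, Col1a1 and Col1a2, were not past the threshold. The summed level of the list was 69.7 to 74.2 CPM in Control and 40.8 to 50.5 CPM in CBP-ifKO libraries, most of it Dcn (57.9 and 35.6 CPM). The part of any of these cells in the members' changes was not tested.

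Lct, Npnt, Tdo2 and Plk5 were called in the same direction in each of 17 alternative analyses. Their log2 fold changes there were 0.66 to 0.77 for Lct and 0.51 to 0.63 for Npnt. For Tdo2 the values were -0.98 to -0.82, and for Plk5 they were -1.02 to -0.70. The number of members called ran from 4 to 6, the additional ones being Prox1 in 3 analyses and Calb1 in 6. Scaling by library totals alone kept the same signs for all 10 members and called Calb1 in addition, although over all genes it moved the lower share of the calls from 78.1% to 56.5%.

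**Figure D4:**
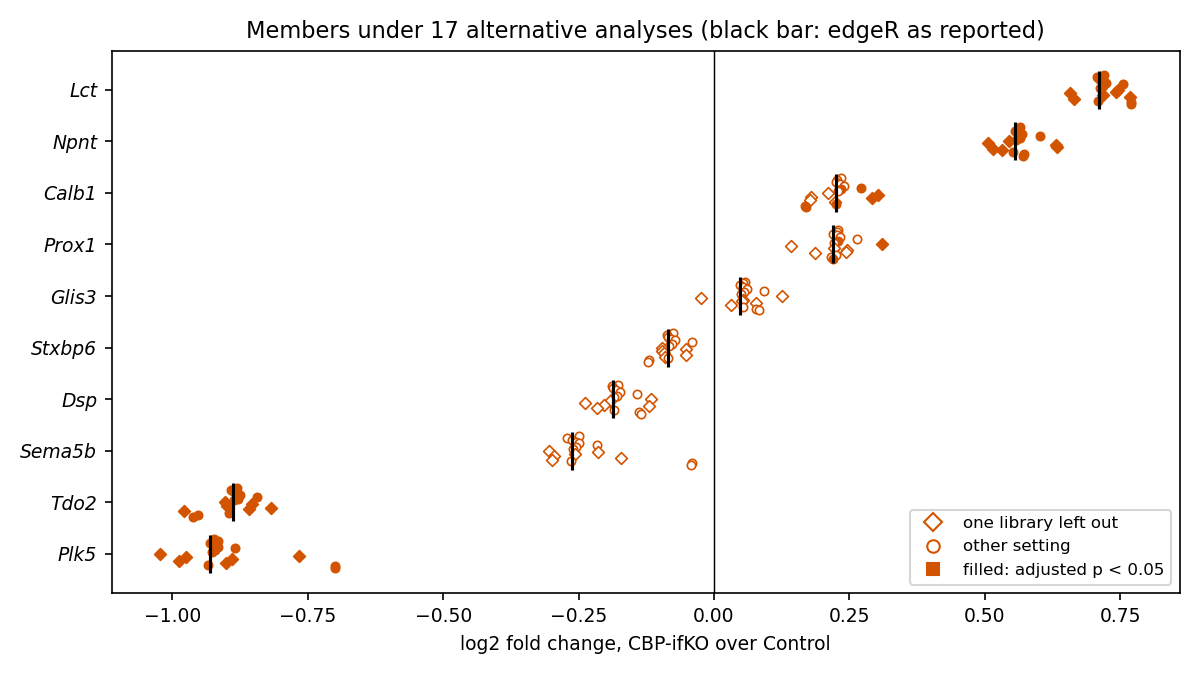
Log2 fold change of each member under 17 alternative analyses, as circles, or diamonds where 1 library was left out, filled where the adjusted p was under 0.05, with the reported edgeR value as a black bar. The symbols of Lct, Npnt, Tdo2 and Plk5 are all filled, those of Calb1 and Prox1 in part, and Glis3 has a symbol on each side of 0 (from -0.02 to 0.13).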

How the data were processed

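Total RNA of mouse hippocampus was sequenced in 6 libraries (single-end, 50 bp), 3 Control and 3 CBP-ifKO, grouped by the sample titles. Per the labels and the study's methods, the authors trimmed reads (Trim Galore 0.6.4), aligned them to GRCm38 with STAR 2.6.1, kept those of high mapping quality and counted them over Ensembl exons with Rsubread. The deposited values are whole counts per gene that were not normalized. Whether counting used strand is not stated. Totals were 10199008 to 14950257 counts per library.

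Of the 55471 gene identifiers, 55230 matched the GRCm38 annotation used for symbols, coordinates, exon length and GC content. Counts were tested with edgeR (version 4.0.16, R 4.3.3) by the quasi-likelihood F-test, with TMM scaling, a minimum count of 10 and total of 15 (filterByExpr), and Benjamini-Hochberg adjustment over 17981 genes. The threshold was an adjusted p under 0.05. DESeq2 (version 1.42.0, Wald test), the tool of the study, was run as an alternative. Other alternatives were limma-voom (limma 3.58.1), robust dispersions, 3 other scalings, 2 other filters, each library left out, the replicate number as a block, and offsets for GC content and length (splines, 5 degrees of freedom), with and without the block. Ratios to Prox1 used counts + 0.5. The script was tested on simulated data. Promoter windows (250 bases before to 50 after the start) were RefSeq entries on GRCm38.p6, found for 9 of 10 members. Pairs of members that moved oppositely were formed after their values were seen.

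The 10 members, the other gene lists and the tests were chosen with earlier results of these data known. Named are all members, Crebbp, Ep300, Esr1, Arsi and Camk2a as checks, and the genes of other lists that were called or, among the 15 other granule cell genes, did not overlap between genotypes. The 6 remaining granule cell genes, Ociad2, Dcx, Top2a and the uncalled CA2 and fibroblast genes were named after their values were seen.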

Additional observations from a re-analysis of the deposited data

How the results depend on the processing

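The 4 calls among the members held in every alternative, with 4 to 6 members called, whereas counts over all genes moved. Genes past the threshold numbered 1149, against 498 to 1326 with 1 library left out, 476 at an adjusted p under 0.01, and 1839 (717 higher, 1122 lower) with the replicate block and offsets for GC content and length. The lowest counts came without CBP-ifKO replicate 2 (498), CBP-ifKO replicate 3 (526) and Control replicate 3 (546). DESeq2 called 903 genes, of which 871 were shared. With library totals only, 514 calls were higher and 667 lower, and the members' median log2 fold change was 0.027, against -0.02. The other granule cell genes called numbered 3 to 6 with 1 library left out, the 3 without Control replicate 3 being C1ql2, Trpc6 and Pdyn, and 7 with the replicate block and offsets, 1 of them higher (Ahcyl2).

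Several genes with values near 0 changed sign, none of them called. With 1 library left out, log2 fold changes ran from -0.025 to 0.13 for Glis3, from -0.0067 to 0.063 for Rfx3, from -0.27 to 0.12 for Maml2, from -0.032 to 0.039 for Akap7 and from -0.099 to 0.12 for Rasl10a. With offsets alone, and with offsets and the block, the values were -0.015 and -0.017 for Rfx3, -0.046 and -0.048 for Akap7, -0.0040 and -0.0055 for Neurod1, and 0.17 and 0.16 for Rasl10a. Rasl10a was at 0.00017 with DESeq2, 0.00032 with RLE scaling, 0.0068 with upper-quartile scaling, 0.040 with library totals and 0.0028 with no filter. The causes were not tested.

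Replicate numbers did not pair the samples. Deviations of same-numbered libraries correlated at 0.077, 0.037 and 0.0022, and of these pairs only that of number 1 was a mutual best match. A fit with the replicate block called 1210 genes, and 1091 were among the 1149. Among the members, the block called Calb1 in addition (0.22, edgeR adjusted p 0.0433), and among the other granule cell genes Bcl11b (-0.21, edgeR adjusted p 0.0485). Tdo2 and Plk5 have the fewest counts and so the least precise fold changes.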
